A study of Macaca fascicularis with 2 samples.

Results

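Genes for the import of proteins into mitochondria and for the folding of the inner membrane into cristae were examined in gastrocnemius, a calf muscle, of the cynomolgus macaque Macaca fascicularis. The members were chosen by symbol, with earlier results of these data known. The symbols cover translocases of the outer membrane (TOMM) and inner membrane (TIMM), and the sorting and assembly gene SAMM50 with the metaxins (MTX). They also cover the GRPEL co-chaperones, the PMPC peptidase subunits, IMMT, APOO, APOOL, OXA1L, the prohibitins PHB and PHB2, and the CHCHD genes. In all, 41 of 28175 genes in the files carried such a symbol. Polyadenylated RNA was sequenced from a lean sample on chow diet (1 library) and from a non-lean sample on high fat diet (1 library). The labels do not say how many animals stand behind each, nor their age. The study asked which genes differ between lean and obese muscle. With 1 library per group there is no replicate error and no test between the groups, so every difference given here compares these libraries and not the diets.

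Most mitochondrial proteins are encoded in the nucleus, made in the cytosol and threaded through the TOM complex of the outer membrane. From there the SAM complex inserts barrel-shaped proteins into the outer membrane, small TIM chaperones carry hydrophobic proteins across the intermembrane space, and the TIM22 and TIM23 translocases pass proteins into or across the inner membrane, where a motor pulls them in and a peptidase removes the targeting sequence. The MICOS complex holds the necks of the cristae, which carry the respiratory chain and are dense in muscle that works by oxidation.

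The library totals were 15983348 lean and 12731974 non-lean counts. Levels are CPM, the counts of a gene relative to the library size, scaled between the libraries by the trimmed mean of M-values, and tested genes are the 13707 with a mean of at least 1 scaled CPM. Brackets give the 95% exact (Clopper-Pearson) interval of the log2 ratio, taken as non-lean over lean, which covers counting error only. It treats each read as independent, but amplified reads carry no molecular identifiers and do not each stand for a separate molecule. The interval may thus be too narrow even for counting error. Markers of the labelled tissue were present: all 10 muscle fibre markers were detected in both libraries, and together they took 22.9% of lean and 19.1% of non-lean counts.

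Most members were slightly higher in the non-lean library. Of 40 tested members, 35 had a ratio above 0, and their median log2 ratio was 0.28 with quartiles of 0.13 and 0.44. Over all tested genes the median was -0.01 with quartiles of -0.39 and 0.34, and 49.2% of ratios were above 0. The interval lay above 0 for 22 members, below 0 for 3 and held 0 for 15, where 25.8% of all tested genes lay above and 28.8% below. A gene was called when it was at least 1.5-fold apart with an interval that excluded 0. By this measure 5 members were called higher (TIMM13, TIMM10, TIMM17A, CHCHD4 and CHCHD5), next to 11.9% of all tested genes, and 1 was called lower (APOOL), next to 15.4%. That share of higher calls, 5 of 40, is near the background. At 2-fold no member was called in either direction, while 4.91% of tested genes were called higher and 7.16% lower. Of all called genes 43.5% were higher in the non-lean library, and 60.8% when libraries were scaled by total counts, which moved the median of all tested genes from -0.01 to 0.13. The members' median moved with it to 0.43, and stood 0.30 above that of all tested genes in the first scaling and 0.29 in the second. With total counts 30 members had intervals above 0 and 2 below, those of CHCHD3 and APOOL. With coding transcript models alone 27 lay above 0, those of GRPEL1, MTX2, MTX3, PMPCB and TOMM7 added, and 3 below. The added genes have coding models only, so their counts were unchanged and only the recomputed scaling moved their ratios. The shares of all tested genes with intervals above or below 0 were not computed for total counts or coding models.

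**Figure D1:**
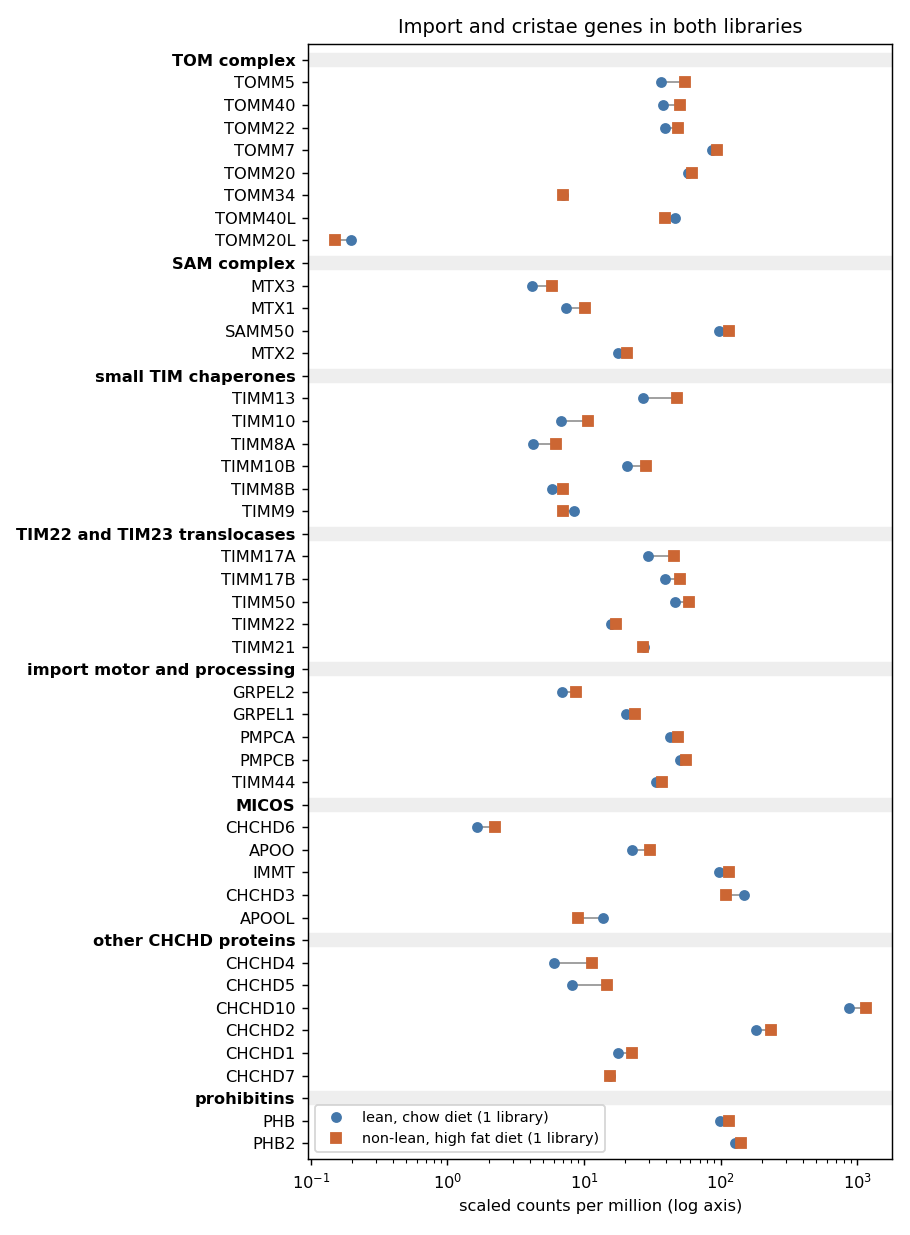
Scaled CPM (log axis) of the 41 members in the lean (circles) and the non-lean library (squares), grouped by role, with 1 library per point. CHCHD10 is at the far right in both libraries, and in most rows the square lies slightly to the right of the circle.

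Other gene groups differed beside the members. Of 9 slow fibre markers 8 had intervals above 0, with summed levels of 16069 lean and 23497 non-lean scaled CPM over all 9. MYBPC1, among those 8, was only at 0.01. The exception, CASQ2, was far lower, with 697 lean and 61 non-lean counts and a ratio of -3.32 [-3.73, -2.95]. Of the 10 muscle fibre markers 9 had intervals below 0, with a median of -0.32, and MB, the oxygen store of oxidative fibres, was the 1 above, at 0.80 [0.79, 0.82]. Of 9 fast fibre markers 8 had intervals below 0, with sums of 124111 and 86099 scaled CPM. MYH1, TNNT3 and ATP2A1 belong to both the muscle fibre and the fast fibre list, so these lists are not separate results. Macrophage markers had sums of 119.5 and 35.6 scaled CPM with 8 of 9 intervals below 0, fibroblast markers sums of 1032 and 437 with 7 of 7 below, and endothelial markers sums of 244 and 185 with 4 of 6 below. Adipocyte markers summed to 443 and 445 scaled CPM, of which PLIN4 held 5448 lean and 5067 non-lean counts. Of the 7 tested adipocyte markers 5 had intervals below 0, among them ADIPOQ, CIDEC, PLIN1 and CIDEA at -3.55, -2.65, -2.64 and -2.38, and 2, FABP4 and PLIN4, had intervals above 0. Of 8 lymphocyte markers MS4A1 was at 0 in both libraries and 3 were tested, all lower. The part of fibre type or of these other cells in the members' ratios was not tested. In RNA of whole muscle, fewer cells of a type and less RNA per cell cannot be told apart.

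The core of the TOM complex, through which nearly all precursors enter, was higher in the non-lean library, but its receptor TOMM20 and the small subunit TOMM7 were not set apart from 0. TOMM40, the pore itself, had 577 lean and 669 non-lean counts, or 37.9 and 50.0 scaled CPM, a log2 ratio of 0.40 [0.24, 0.56]. TOMM22, the receptor at the centre of the complex, had 591 and 648 counts and a ratio of 0.32 [0.16, 0.48]. TOMM5, a small subunit beside the pore, had 561 and 733 counts, or 36.9 and 54.8 scaled CPM, and the highest ratio of the group at 0.57 [0.41, 0.73], which is 1.49-fold and just under the fold for a call. These outer membrane subunits were all higher in the non-lean library. TOMM7, with the most counts of the group, had 1317 and 1246 counts and 86.5 and 93.2 scaled CPM, a ratio of 0.11 [-0.01, 0.22]. TOMM20, which recognises the targeting sequence, had 879 and 822 counts and a ratio of 0.09 [-0.05, 0.23]. Both intervals reached just below 0, so neither gene was separated from 0, while with total counts both intervals lay above 0, at 0.25 for TOMM7 and 0.23 for TOMM20.

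TOMM40L, a paralog of the pore, went the other way. It had 706 lean and 524 non-lean counts, or 46.4 and 39.2 scaled CPM, a ratio of -0.24 [-0.41, -0.08]. With total counts the ratio was -0.10 [-0.27, 0.06], and its interval then held 0. TOMM34, a co-chaperone of the cytosol that carries the TOMM name, stood at 7.03 scaled CPM in both libraries from 107 and 94 counts, with an interval from -0.42 to 0.41. TOMM20L, a paralog of TOMM20, had 3 and 2 counts, at or under a floor of 3 counts, and was the only member that did not reach 1 scaled CPM, so no ratio is given. Over the 7 tested members of the group the median was 0.11, with 3 intervals above 0 and 1 below.

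All 4 genes of the SAM complex and its metaxins had ratios above 0, with a median of 0.34 and 2 intervals above 0. SAMM50, the barrel that inserts other barrels into the outer membrane, had 1485 and 1548 counts, 97.6 and 116 scaled CPM, and a ratio of 0.25 [0.14, 0.35]. MTX1, a metaxin bound to SAMM50, had 113 and 135 counts and a ratio of 0.44 [0.07, 0.82]. SAMM50 and MTX1 were thus higher in the non-lean library, each with an interval above 0. MTX3 had the highest ratio of the group, 0.49 [-0.00, 1.0] from 63 and 78 counts, or 4.14 and 5.83 scaled CPM, but its interval began just below 0. MTX2, the lowest, had 269 and 277 counts, 17.7 and 20.7 scaled CPM, and a ratio of 0.23 [-0.02, 0.48].

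The small TIM chaperones, which form rings of alternating subunits that shield hydrophobic precursors, had a median of 0.51 over 6 tested members. TIMM13, the partner of TIMM8A, had 413 lean and 642 non-lean counts, the most of the group. Its level was 27.1 and 48.0 scaled CPM, 1.77-fold higher at a ratio of 0.82 [0.64, 1.0], and 92.5% of tested genes had a lower ratio. TIMM8A, the gene of the Mohr-Tranebjaerg deafness-dystonia syndrome, had 64 and 83 counts and a ratio of 0.56 [0.07, 1.06]. Both subunits of that ring were therefore higher in the non-lean library. TIMM10 had 103 and 142 counts, 6.77 and 10.6 scaled CPM, and was 1.57-fold higher at 0.65 [0.27, 1.03]. TIMM9, the subunit that alternates with TIMM10 in the ring for carrier proteins, had 129 and 93 counts, 8.48 and 6.95 scaled CPM, and the lowest ratio of the group, -0.28 [-0.69, 0.11]. The partners of this ring pointed in opposite directions, although the interval of TIMM9 held 0. TIMM10B, which docks the ring on the TIM22 translocase, had 316 and 380 counts and a ratio of 0.45 [0.23, 0.67]. TIMM8B, a paralog of TIMM8A, had 89 and 93 counts and a ratio of 0.25 [-0.18, 0.69].

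Among the inner membrane translocases the 3 TIM23 subunits TIMM17A, TIMM17B and TIMM50 were higher, and TIMM22 and TIMM21 were not separated from 0. TIMM17A had 446 lean and 609 non-lean counts, 29.3 and 45.5 scaled CPM, 1.55-fold higher at 0.64 [0.46, 0.82]. Its paralog TIMM17B had 600 and 674 counts and a ratio of 0.35 [0.19, 0.52]. TIMM50, the receptor that takes precursors from the TOM complex, had the most counts of the group, 700 and 785, or 46.0 and 58.7 scaled CPM, and a ratio of 0.35 [0.20, 0.50]. These 3 intervals of the TIM23 complex lay above 0. TIMM22, the channel for carrier proteins, had 240 and 230 counts and a ratio of 0.13 [-0.14, 0.39]. TIMM21, which links TIM23 to the outer membrane and to respiratory chain assembly, was the lowest of the group with 415 and 359 counts, 27.3 and 26.8 scaled CPM, and a ratio of -0.02 [-0.23, 0.18] that became positive with total counts.

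**Figure D2:**
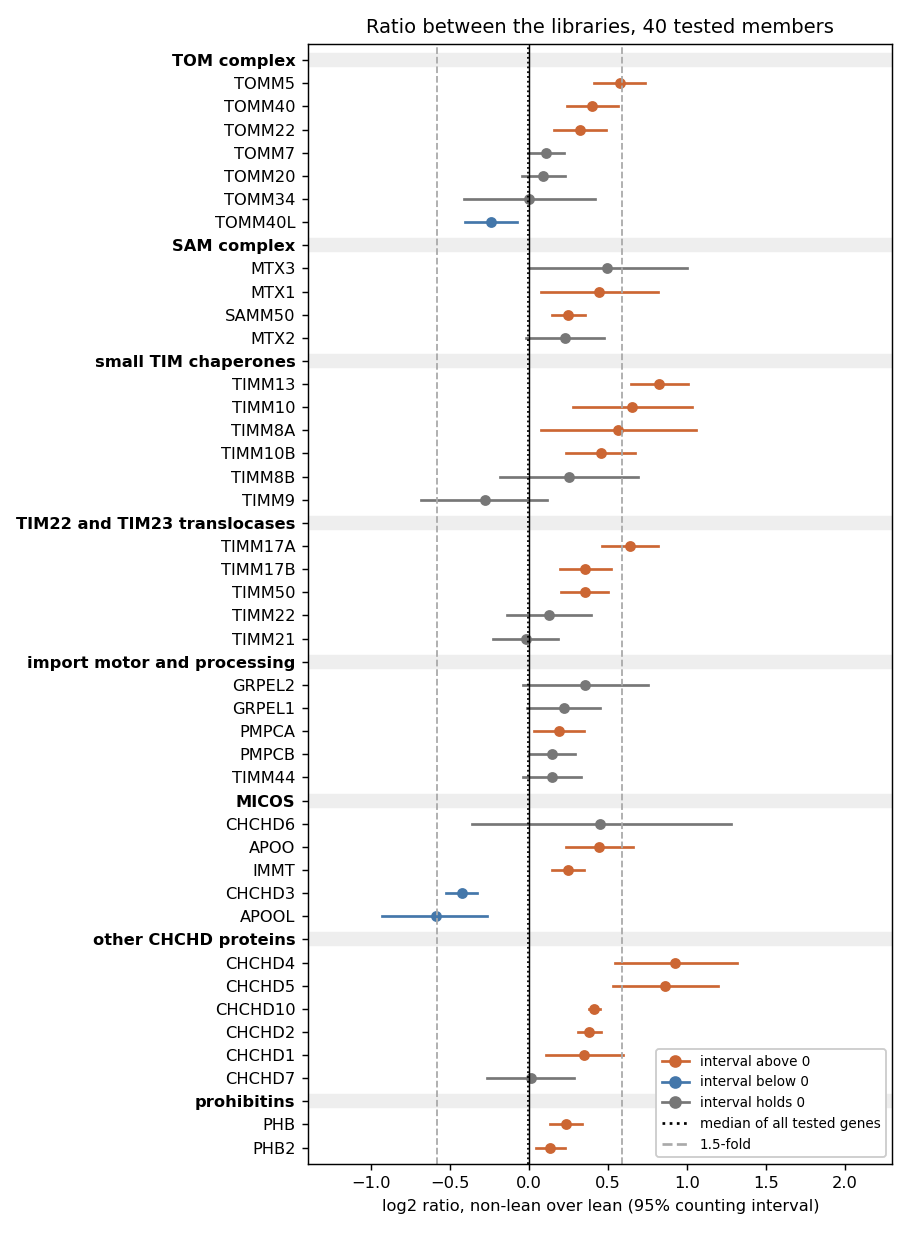
Log2 ratio, taken as non-lean over lean, with its 95% counting interval for the 40 tested members, grouped by role. Of the intervals 22 lie above 0, 3 below and 15 hold 0, and the dashed lines mark 1.5-fold.

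The genes of the import motor and the processing peptidase lay close together. All 5 tested members had ratios between 0.14 and 0.36, with a median of 0.19, and 1 interval lay above 0. TIMM44, which ties the mitochondrial Hsp70 motor to the channel, was the lowest with 513 and 498 counts, 33.7 and 37.2 scaled CPM, a ratio of 0.14 [-0.04, 0.32]. The nucleotide exchange factor GRPEL1 had 308 and 315 counts and a ratio of 0.22 [-0.01, 0.45]. Its paralog GRPEL2 had 104 and 117 counts, 6.83 and 8.75 scaled CPM, and a ratio of 0.36 [-0.04, 0.75]. None of these motor genes was separated from 0, but with total counts the intervals of all 3 lay above 0, at 0.29 for TIMM44, 0.36 for GRPEL1 and 0.50 for GRPEL2. PMPCA, the regulatory subunit of the peptidase that removes targeting sequences, had 652 and 653 counts and a ratio of 0.19 [0.03, 0.35], whose interval held 0 with DESeq2 size factors. PMPCB, the catalytic subunit and the member with the most counts here, had 766 and 744 counts, 50.3 and 55.6 scaled CPM, and a ratio of 0.14 [-0.00, 0.29]. The subunits of the peptidase thus had nearly the same ratio.

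MICOS was the only role group with 2 intervals on each side of 0. IMMT, also called MIC60, the scaffold of the complex, had 1480 lean and 1541 non-lean counts, 97.3 and 115 scaled CPM, a ratio of 0.24 [0.14, 0.35]. CHCHD3, also called MIC19, which binds IMMT and links it to SAMM50, had 2244 and 1465 counts, 147 and 110 scaled CPM, and a ratio of -0.43 [-0.52, -0.33]. The scaffold was therefore slightly higher and its binding partner lower, each with an interval that excluded 0. CHCHD3 also stayed lower with total counts, at -0.29. APOO, or MIC26, had 342 and 409 counts and a ratio of 0.44 [0.23, 0.66]. Its paralog APOOL, or MIC27, a cardiolipin-binding subunit, had 208 and 121 counts, 13.7 and 9.05 scaled CPM, and was 1.51-fold lower at -0.59 [-0.93, -0.26]. APOOL is the only member called lower, and it lies near the fold. It was not called when libraries were scaled by total counts, at -0.45, or when only coding transcript models were summed, at -0.57. All its models are coding, so in the latter case only the recomputed scaling differed. CHCHD6, or MIC25, the highest of the group by ratio, had 25 and 30 counts, 1.64 and 2.24 scaled CPM, and a ratio of 0.44 [-0.37, 1.28] that held 0. The group median of 0.24 came from 2 intervals above 0, 2 below and 1 that held 0, and among genes with at least 5 scaled CPM, which leaves CHCHD6 out, it was -0.09.

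Of the other CHCHD genes, 5 of 6 had intervals above 0, and the median was 0.40. CHCHD4, also called MIA40, the oxidoreductase that folds cysteine-rich proteins in the intermembrane space, had 91 lean and 152 non-lean counts. Its level was 5.98 and 11.4 scaled CPM, a ratio of 0.92 [0.54, 1.32] and 1.90-fold, the highest of all tested members, with 94.0% of tested genes lower. CHCHD5 had 124 and 198 counts, 8.15 and 14.8 scaled CPM, and was 1.81-fold higher at 0.86 [0.53, 1.20]. Small TIM chaperones and several CHCHD proteins are known clients of CHCHD4, which acts on the proteins. TIMM10, TIMM13 and CHCHD5 were called higher beside it, and TIMM8A and TIMM10B had intervals above 0 without a call. TIMM9, TIMM8B and CHCHD7 were not separated from 0. CHCHD3, a CHCHD protein of MICOS, went the other way at -0.43 [-0.52, -0.33]. A link between these RNA levels was not tested. GFER, the oxidase that keeps CHCHD4 active, had 225 and 232 counts and a ratio of 0.23 [-0.04, 0.50].

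CHCHD10, mutated in inherited motor neuron and muscle disease, held the most counts of any member. It had 13225 lean and 15458 non-lean counts, 869 and 1156 scaled CPM, a ratio of 0.41 [0.38, 0.45]. Its paralog CHCHD2 had 2744 and 3140 counts, 180 and 235 scaled CPM, and a ratio of 0.38 [0.31, 0.46]. The paralogs thus moved together. All members summed to 2429 lean and 2964 non-lean scaled CPM, and to 1559 and 1808 without CHCHD10. CHCHD1, a protein of the small mitochondrial ribosome subunit, had 268 and 300 counts and a ratio of 0.35 [0.11, 0.59]. CHCHD7 was the lowest of the group with 235 and 208 counts, 15.4 and 15.6 scaled CPM, and a ratio of 0.01 [-0.27, 0.29].

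The prohibitins form a ring in the inner membrane that holds proteases in place. PHB had 1492 and 1540 counts, 98.0 and 115 scaled CPM, and a ratio of 0.23 [0.13, 0.34]. PHB2 had 1951 and 1878 counts, 128 and 140 scaled CPM, and a ratio of 0.13 [0.04, 0.22]. Both had intervals above 0 and were higher by less than the median member.

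The symbols also cover 3 genes that the files list under other names, identified through RefSeq genes (assembly T2T-MFA8v1.1) and kept out of the counts above. OXA1L, which inserts proteins into the inner membrane from the matrix side, had 2024 lean and 1169 non-lean counts, 133 and 87.4 scaled CPM, and was 1.52-fold lower at -0.61 [-0.71, -0.50]. TOMM70, the receptor for carrier proteins, had 1005 and 965 counts and a ratio of 0.13 [-0.00, 0.26]. TIMM29, a subunit of the TIM22 complex, had 243 and 200 counts and a ratio of -0.09 [-0.37, 0.18]. OXA1L was thus lower, and neither TOMM70 nor TIMM29 was separated from 0. With these genes included, 43 were tested, the median was 0.25, 22 intervals lay above 0 and 4 below, and 5 were called higher and 2 lower. TIMM23, TIMM23B and TOMM6 were not analysed here.

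Partners and paralogs were also compared within each library, since the share that a gene takes of its pair's counts does not depend on scaling between libraries. The 12 pairs were chosen for their known relation after the values had been seen, and shares describe the counts of these genes, not their protein stoichiometry. APOOL took 37.8% (95% Clopper-Pearson interval 33.7 to 42.0) of the counts of APOOL and APOO in the lean library, against 22.8% (19.3 to 26.6) in the non-lean. CHCHD3 took 60.3% (58.7 to 61.8) of the counts of CHCHD3 and IMMT in the lean library, against 48.7% (46.9 to 50.5) in the non-lean. TOMM40L took 55.0% (52.3 to 57.8) of the counts of TOMM40L and TOMM40 in the lean library, against 43.9% (41.1 to 46.8) in the non-lean. In these pairs the first gene took a smaller share in the non-lean library, and the intervals did not overlap. TIMM10 took 44.4% (37.9 to 51.0) of the counts of TIMM10 and TIMM9 in the lean library, against 60.4% (53.9 to 66.7) in the non-lean, again without overlap. How often pairs of unrelated genes shift as far was not computed. Ratios of single genes had intervals above 0 for 25.8% of all tested genes and below 0 for 28.8%, which is not a rate for pairs. Whether such shifts are particular to these pairs was therefore not tested.

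In the other 8 pairs the intervals overlapped. CHCHD2 took 17.2% (16.6 to 17.8) of its pair with CHCHD10 in the lean library, against 16.9% (16.3 to 17.4) in the non-lean. PMPCA took 46.0% (43.4 to 48.6) of its pair with PMPCB in the lean library, against 46.7% (44.1 to 49.4) in the non-lean. PHB took 43.3% (41.7 to 45.0) of its pair with PHB2 in the lean library, against 45.1% (43.4 to 46.7) in the non-lean. These pairs of abundant genes kept their proportions to within 1.72 percentage points. The pair of TIMM17A and TIMM17B shifted further, from 42.6% (39.6 to 45.7) to 47.5% (44.7 to 50.2) for TIMM17A, with intervals that still overlapped.

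**Figure D3:**
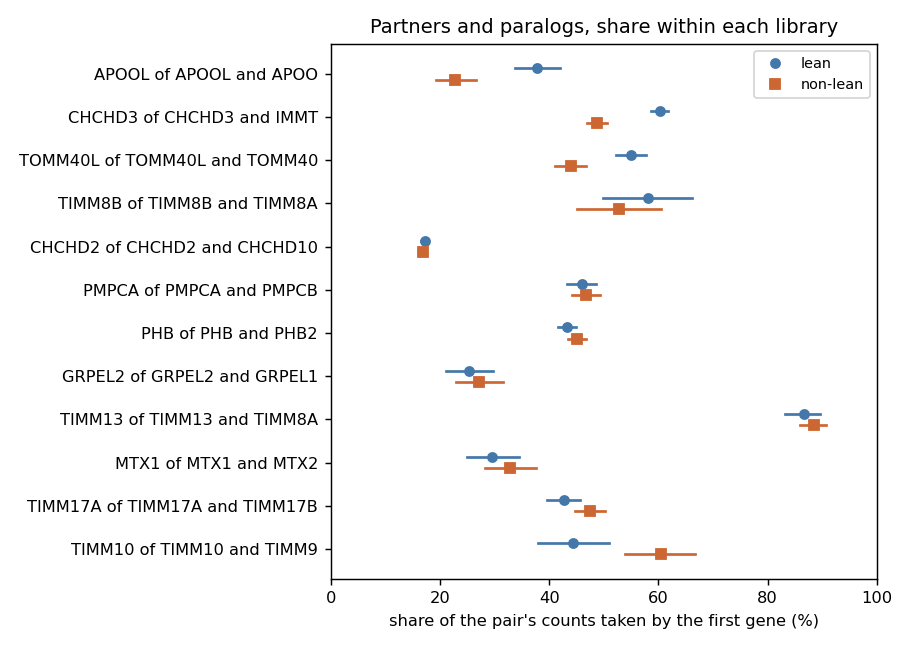
Share of a pair's counts taken by the first gene (%) in the lean (circles) and the non-lean library (squares), with 95% Clopper-Pearson intervals. The intervals are apart for APOOL with APOO, CHCHD3 with IMMT, TOMM40L with TOMM40 and TIMM10 with TIMM9, and overlap in the other 8 pairs.

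The files divide counts among RefSeq transcript models, and the 41 members had 103 models. Of the 20 members with several models, 14 had the same leading model in both libraries and 6 did not, TOMM20L with its 3 and 2 counts among them. The models are numbered here within each gene in order of their identifiers. CHCHD6 is among the 14 only by that order, since its models 3 and 10 tied for the lead. Each had 11.33 lean and 10.5 non-lean estimated counts. PMPCA model 1 took 70.6% of the gene's estimated counts in the lean library (460.59 counts) and 32.4% in the non-lean library (211.33 counts), with model 2 making up the rest. TOMM34 model 1 took 76.9% (67.8 to 84.5) in the lean library, against 39.8% (29.9 to 50.4) in the non-lean. For both genes the leading model changed, while the summed gene was at a ratio of 0.19 for PMPCA and 0.00 for TOMM34. PMPCB model 1 took 55.9% in the lean library, against 39.5% in the non-lean. TOMM40L was led by model 3 in the lean library (46.8%) and by model 4 in the non-lean library (53.1%), and its model 1, with 76.74 counts in the lean library, was listed at 0 in the non-lean library. CHCHD7 was led by model 4 in the lean library at 55.5%, which took 5.25% in the non-lean library, where model 1, listed at 0 in the lean library, led with 36.2%. These shares are estimates that split reads shared between models, and the intervals do not cover the error of that split. The labels' protocols name both single-end and paired-end reads, so whether both libraries were read in the same layout is not known, and its part in the shares was not tested.

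**Figure D4:**
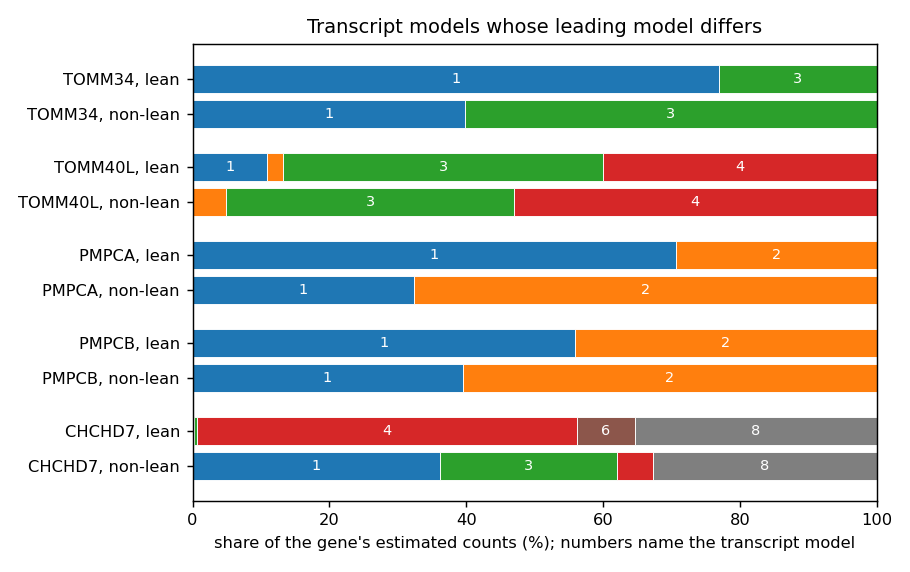
Share of a gene's estimated counts (%) taken by each transcript model in the lean and the non-lean library, for the 5 tested members whose leading model differed. Segments are numbered by model, and the largest segment changes from the upper to the lower bar of each gene.

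The pathway also holds genes outside these symbols, given here from a list. Of 23 other import genes 7 had intervals above 0, 3 below and 13 held 0, with a median of 0.18. Above 0 lay 30.4% of the list and below 0 lay 13%, next to 25.8% and 28.8% of all tested genes. The share above 0 is thus near the background. COX18, an inner membrane insertase, had 138 and 215 counts and a ratio of 0.82 [0.51, 1.15]. ROMO1, a small inner membrane protein, had 537 and 779 counts and a ratio of 0.72 [0.56, 0.88]. COX18 and ROMO1 were the highest of the list. DNLZ, a helper of mitochondrial Hsp70, was the lowest with 196 and 62 counts and a ratio of -1.47 [-1.91, -1.06], followed by the co-chaperone DNAJA3 at -0.26 [-0.37, -0.15]. The Hsp70 motor HSPA9 itself had 3126 and 2652 counts and a ratio of -0.05 [-0.13, 0.02].

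Of 19 other genes of cristae and inner membrane upkeep 11 had intervals above 0 and 4 below, with a median of 0.19. These are 57.9% and 21.1%, next to 25.8% and 28.8% of all tested genes. MICOS10, listed as MINOS1, a core MICOS subunit that shapes the neck of cristae, had 610 and 907 counts and a ratio of 0.76 [0.61, 0.91]. ATAD3A, an inner membrane ATPase, had 212 and 307 counts and a ratio of 0.72 [0.46, 0.98]. MICOS13, found by its current symbol, which joins the MICOS subcomplexes, had 601 and 762 counts and a ratio of 0.53 [0.37, 0.69]. These MICOS genes were higher beside IMMT and APOO, while CHCHD3 and APOOL were lower. The protease OMA1, which cuts the cristae shaping GTPase OPA1 under stress, was the lowest of the list with 108 and 64 counts and a ratio of -0.56 [-1.04, -0.11]. SPG7, a protease subunit of the inner membrane, followed with 1537 and 970 counts and a ratio of -0.48 [-0.59, -0.36]. OPA1 had 561 and 632 counts and a ratio of 0.36 [0.19, 0.53].

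The members' median of 0.28 was set beside the gene families of the same organelle. Complex I subunits had a median of 0.59, with 35 of 39 intervals above 0 and 21 called higher. Subunits of complexes II to V had a median of 0.61, with 38 of 42 intervals above 0 and 22 called higher. Mitochondrial ribosomal proteins had a median of 0.37, with 52 of 74 intervals above 0 and 13 called higher. Called lower were 1 complex I subunit, 0 subunits of complexes II to V and 1 ribosomal protein. Over all tested genes 25.8% of intervals lay above 0, 11.9% were called higher and 15.4% lower. The members thus stood between all tested genes and the respiratory chain subunits, below the ribosomal proteins, and these differences between families were not tested.

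**Figure D5:**
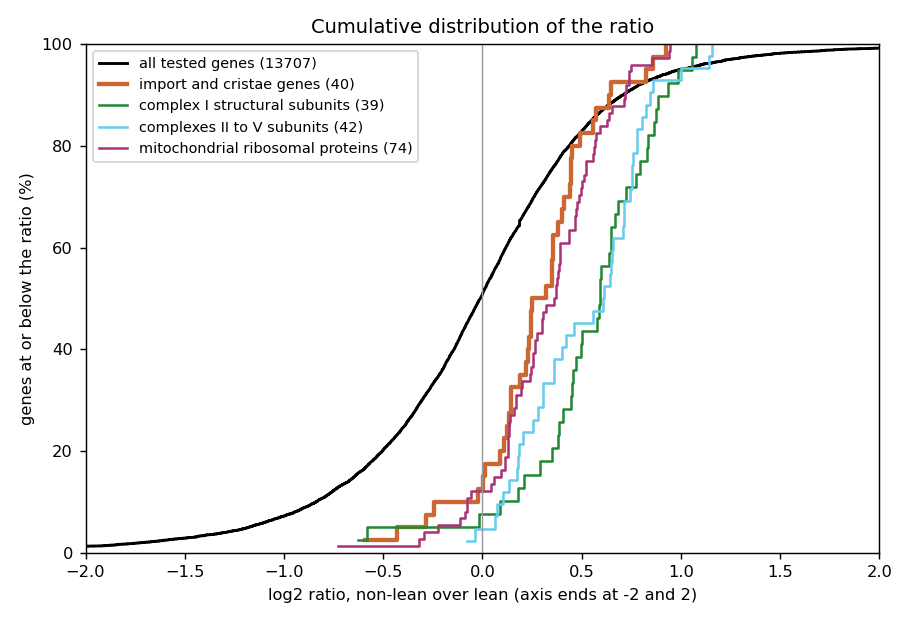
Percentage of genes at or below each log2 ratio, taken as non-lean over lean, for all tested genes, the 40 tested members and 3 other families of mitochondrial genes. The members' curve lies right of that of all tested genes over most of its course and left of both respiratory chain curves above its lowest members, with medians of 0.28, -0.01, 0.59 and 0.61.

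Counting error limited what could be seen, beside the replicate error, which 1 library per group leaves unknown. The half-width of the log2 interval was 0.19 for the median tested member, from 0.034 for CHCHD10 to 0.82 for CHCHD6, and 10 tested members had fewer than 300 counts in both libraries together. For 12 of the 40 tested members the half-width exceeded the members' median ratio of 0.28, and a difference of that size was not detectable at their depth. Of the 41 members, 17 overlap another gene in the RefSeq annotation of T2T-MFA8v1.1, among them TIMM9 with TOMM20L, TIMM13 with TMPRSS9, APOOL with SATL1, PMPCB with DNAJC2 and CHCHD10 with MMP11. Overlap was judged from the start and end of each gene, without regard to exons or strand. The labels' protocols name no step that marks the strand, and whether reads are shared in such overlaps was not tested.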

How the data were processed

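Per the file headers, each deposited file lists RefSeq transcript models with a gene symbol and an expected count, an estimated read count that need not be whole. Tools listed in the submitters' processing notes are RSEM 1.3.3, STAR 2.7.8a and Trim Galore 0.6.6. Of the genome build, annotation and filters, nothing is given in the sources used here. Estimated counts were summed per gene and rounded, and 24 symbols that had become dates were split through transcript accessions. Libraries were scaled with edgeR 4.0.16 (factors 0.952 lean, 1.05 non-lean) in R 4.3.3. Log2 ratios used a prior count of 0.5, with exact binomial intervals, in Python 3.11.15 with scipy 1.17.1, and the code was tested on simulated data. DESeq2 1.42.0 gave alternative size factors.

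The members, role groups and lists were chosen with earlier results of these data known. Called members, and the highest, lowest and most counted member of each role group, are given in full, with the highest and lowest 2 of other lists. HSPA9, OPA1, GFER, MICOS13 and single cell type markers were added after their values were seen. Protein lengths were planned as a comparison and are not analysed here.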

Additional observations from a re-analysis of the deposited data

How the results depend on the processing

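No paired analysis was possible because each group has 1 library, and for the same reason no library could be left out. With total counts the members' median was 0.43, that of all tested genes 0.13, and 10 members were called higher and 0 lower, next to 17.6% and 11.3% of all tested genes. With only coding transcript models, which were scaled anew, 0 were called lower, and with current symbols 2. At 2-fold 0 were called higher and 0 lower, and at a difference of 25% or more 16 higher and 2 lower, next to 20.4% and 23.8%. Under the other alternatives (DESeq2 size factors, no filter, at least 5 scaled CPM, a prior count of 2, unrounded sums) the members' median lay between 0.25 and 0.28. Among tested members the sign changed for TIMM21 with total counts, for CHCHD7 and TOMM34 with DESeq2 size factors, and for TOMM34 with unrounded sums, all with intervals that held 0.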

Other observations

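Some members held transcript models with estimated counts in 1 library and none in the other, although the gene's leading model was the same in both. These were singled out after their values were seen. IMMT model 1 had 254.17 estimated counts in the lean library and was listed at 0 in the non-lean library, while models 7 and 9 had 85.35 and 114.01 in the non-lean library and were listed at 0 in the lean library. MTX2 model 1 had 109.38 estimated counts in the non-lean library and TIMM9 model 1 had 34.31, and both were listed at 0 in the lean library. APOO model 4 was listed at 0 in the lean library and had 99.76 in the non-lean library. The leading model of TIMM9 had 128.91 and 58.82 estimated counts.

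TIMM10B was the only member with a non-coding model, with 26.45 lean and 11.8 non-lean estimated counts, while its leading coding model had 232.62 and 353.11. CHCHD5 model 1 took 63.0% of the gene's estimated counts in the lean library, against 84.8% in the non-lean. PHB model 2 took 61.9% and 75.2%.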
